A study of Salmo salar with 72 samples.

Results

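The response of Atlantic salmon liver cells to 30 µM arsenite was described across the whole transcriptome by comparing the 6 arsenite libraries titled 30 µM with the 6 libraries of the arsenite control plates, matched fish by fish. These are 12 of the 72 libraries of the series. Hepatocytes had been isolated from 6 male Salmo salar by perfusion with collagenase, seeded on laminin-coated Alvetex scaffolds, porous membranes that hold cells in a mesh, and kept at 10 °C in L-15 medium with 10% fetal bovine serum. They were cultured for 36 to 40 h before exposure and then exposed for 48 h, and total RNA was sequenced. The control libraries came from cells of the same 6 fish on the arsenite plates, without arsenite. No genotype is given beyond the species, and all fish were male. The label texts do not fully match one another: the sample descriptions speak of an arsenosugar as well as arsenite, and the treatment text lists an arsenite series that ends at 30 µM, while the titles run from control through 3, 10 and 30 to 100 µM. The titles were followed. The cells are a primary culture outside the fish, so the comparison describes cultured hepatocytes and whatever other liver cells came with them.

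Arsenite is the trivalent inorganic form of arsenic. It binds closely spaced thiols in proteins, which leads to misfolded protein, and it is a classical inducer of the heat shock response, in which heat shock factors switch on chaperone genes. It also activates kinases of the integrated stress response, which slow translation and raise the transcription factors ATF4 and ATF3, and the antioxidant factor NRF2. In liver cells arsenite enters through aquaglyceroporins, is methylated by the arsenite methyltransferase AS3MT and leaves as glutathione conjugates through ABC transporters. Salmonids went through a whole-genome duplication, so many genes below occur as several copies with the same product name.

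The values are the authors' normalised counts (read counts divided by a size factor per library), given for 25830 genes. They are not corrected for gene length, so tests were run between libraries and not between genes. Words such as abundant and scarce refer to normalised counts alone. The 30 µM libraries held 33209127 to 56053503 counted reads and the control libraries 32673323 to 47229788. The 30 µM library of fish 5 stood apart, with 1396 genes at 0, against at most 270 in any other 30 µM library and 143 to 342 in the controls. Results that rest on it are given with and without it. Listed hepatocyte markers, such as albumin-like and apolipoprotein genes, summed to between 5152140 and 5935990 in the controls and between 5229080 and 6507460 at 30 µM, so the labelled cell type was well represented in both groups. Summed erythroid markers were at most 528, leukocyte markers at most 662, endothelial markers at most 137, biliary markers at most 414 and stellate cell markers at most 1297 in any of the 12 libraries. These are bulk samples, in which fewer cells of a type and less RNA per cell cannot be told apart.

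Exposure to 30 µM changed a large part of the transcriptome in both directions. Of 24844 genes tested, 11925 differed from control (48.0%; limma with fish as a block on log2(value + 1), adjusted p under 0.05), with 6675 higher (26.9%) and 5250 lower (21.1%). Rises were larger than falls: 2793 genes rose by 1 log2 unit or more and 1112 fell by as much, 631 rose by at least 2 units, and 189 rose and 22 fell by at least 3 units. All 6 values at 30 µM lay above all 6 control values for 3011 genes (12.1%) and below them for 2201 genes (8.86%). The balance depended on scaling. When each library was scaled to its total, the median change of all genes moved from 0.035 to −0.090, and 5336 genes were called higher and 6902 lower. With TMM scaling the counts were 6128 and 5891. The direction of small changes therefore depends on the scaling, and the gene groups are read against these backgrounds. In single fish, between 2547 and 4410 genes were at least 1 log2 unit higher at 30 µM than in the same fish's control, and between 1852 and 3433 were lower, with the highest count of lower genes in fish 5.

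The largest rises spanned several functions. The tetratricopeptide repeat protein 25-like gene LOC106601019 had 7.31 to 63.3 (median 33.02) normalised counts in the controls and 2932 to 4689 (median 3521) at 30 µM. The groups were far apart, and the rise was 7.11 ± 0.47 on the log2 scale (SE). Its lowest control value was under 10, so its exposed values carried it into the test and no p is given. Claudin-7-a (LOC106608724), a tight junction protein, was at 4.99 to 17.1 (median 11.4) in control and 544 to 1132 (median 742) at 30 µM. It rose in all 6 fish, by 6.03 ± 0.26, and for the same reason no p is given. The transcription factor sox11 was at 2.12 to 12.8 (median 6.49) and then 218 to 429.6 (median 289), again without overlap, and rose by 5.52 ± 0.30. Its control median was under 10, so its exposed values carried it into the test and no p is given. Fermitin family homolog 3-like (LOC106563456), of a family that activates integrins, rose from 0–10.96 (median 4.54) in control to 152.9–803 (median 289.5) at 30 µM, with no overlap.

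**Figure D1:**
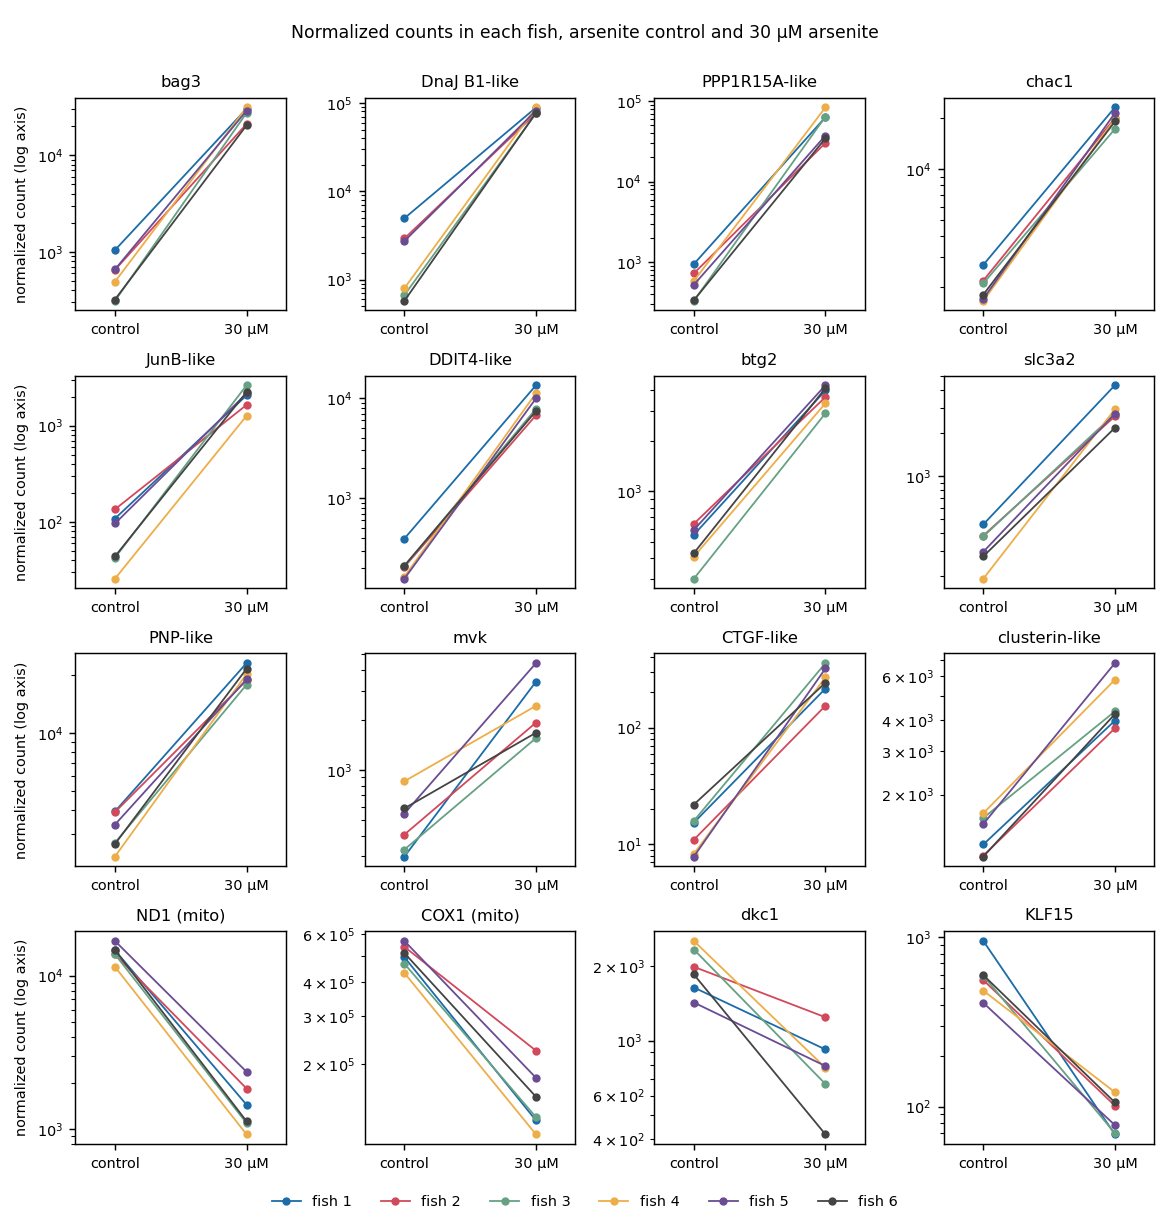
Normalised counts of 16 genes (log axis) in the control and 30 µM arsenite library of each of the 6 fish, with a line joining the libraries of 1 fish. The lines of the first 12 genes run upward in all 6 fish, with bag3 at 311 to 1041 in control and 20356 to 31232 at 30 µM, and those of ND1, COX1, dkc1 and KLF15 run downward in all 6.

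Chaperone genes of the heat shock response were among the strongest rises, while falls in the chaperone list were about as frequent as over all genes. Of 112 chaperone and co-chaperone genes tested, 52 rose and 23 fell, with a median change of 0.26 against 0.035 for all genes. Rises were above the background of 26.9%, and falls were near that of 21.1%. Without pairing by fish, 15 were called lower. The rises included the inducible families. All 9 inducible HSP70 copies rose, as did all 4 HSP90-alpha copies and 8 of 12 DnaJ subfamily B genes, whose products pass clients to HSP70. Of 13 copies of HSP30, a small heat shock protein that holds unfolded protein, 9 had values high enough to be tested against control, and the 6 exposed values alone could carry a copy through that filter. The falls included some constitutive chaperones: 8 of 14 genes of the TCP-1 ring, the complex that folds actin and tubulin, fell, and all 4 genes for mitochondrial HSP60 and TRAP1 fell. Other constitutive families differed. Of 5 heat shock cognate 71 copies 3 rose and 1 fell. The 2 HSP90-beta copies did not pass, though both were called lower with scaling to the library total.

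The co-chaperone bag3, which links HSP70 to autophagy, had 311 to 1041 (median 569.9) normalised counts in control and 20356 to 31232 (median 28078) at 30 µM. The lowest exposed value was many times the highest control value, and the rise was 5.63 ± 0.21 (limma adjusted p = 2.35e-07). The HSP70-like gene LOC106572869 was nearly silent in control at 0 to 102.6 (median 16.4) and reached 1006 to 1736 (median 1342), a rise of 6.69 ± 0.90. With control values as low as 0, its exposed values carried it into the test, so no p is given. A pair of DnaJB1-like genes reached high levels: LOC106564265 went from 574–4943 (median 1762) in control to 76294–89145 (median 79497) at 30 µM, and LOC106591679 went from 836–5414 (median 2163) in control to 88821–113733 (median 91851) at 30 µM. Their rises were 5.75 ± 0.51 (limma adjusted p = 4.01e-04) and 5.61 ± 0.44 (limma adjusted p = 2.21e-04). Their exposed values were close together across fish while their control values were spread out, with fish 1, 2 and 5 above fish 3, 4 and 6. The same order of fish was seen in the controls for summed inducible HSP70, at 2998, 2310 and 1606 in fish 1, 2 and 5 against 283, 380 and 213 in fish 3, 4 and 6. Constitutive hspa8, the cognate HSP70, was at 150568 to 177484 (median 163410) in control and 114967 to 168094 (median 139023) at 30 µM; the groups overlapped, and it fell by 0.25 (limma adjusted p = 0.00681), a call that did not hold without both the mean-variance trend and the robust variances. Near-identical copies of HSP30, HSP70, DnaJB1 and polyubiquitin can share reads, so the split between copies is uncertain.

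The inducible chaperones were not at their peak at 30 µM. Summed HSP30 copies ranged from 26.8 to 294 in control, 39181 to 69884 at 3 µM, 35288 to 72519 at 10 µM, 2825 to 5308 at 30 µM and 831 to 2221 at 100 µM. The 30 µM sums lay between the control sums and those of the lower doses, with no overlap on either side. All 13 copies were lower at 30 than at 10 µM, under both scalings. HSP90-alpha copies summed to 2580.4 to 18509.5 in control, 377965 to 547315 at 10 µM and 63644 to 99457 at 30 µM. bag3 averaged 94916 ± 14173 (SD, n = 6) at 10 µM and 26504 ± 4695 at 30 µM, a difference of −1.85 ± 0.17 (limma adjusted p = 3.43e-08). Of the chaperone list, 1 gene was higher and 81 were lower at 30 than at 10 µM, where the background was 13.6% higher and 16.9% lower of 25801 genes. Scaled to the library total, the counts were 3 and 73. Against 100 µM the difference ran the other way, with 44 chaperone genes higher at 30 µM, where the background was 2.83% higher and 0.671% lower. Of the DnaJB1-like genes, LOC106564265 differed from 10 µM by −0.35 ± 0.33 (limma adjusted p = 0.477) and LOC106591679 by −0.63 ± 0.29 (limma adjusted p = 0.104), neither past the threshold. Both were higher at 30 than at 100 µM, by 1.69 ± 0.33 and 1.57 ± 0.29 (limma adjusted p = 0.00351 and 0.00166).

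**Figure D2:**
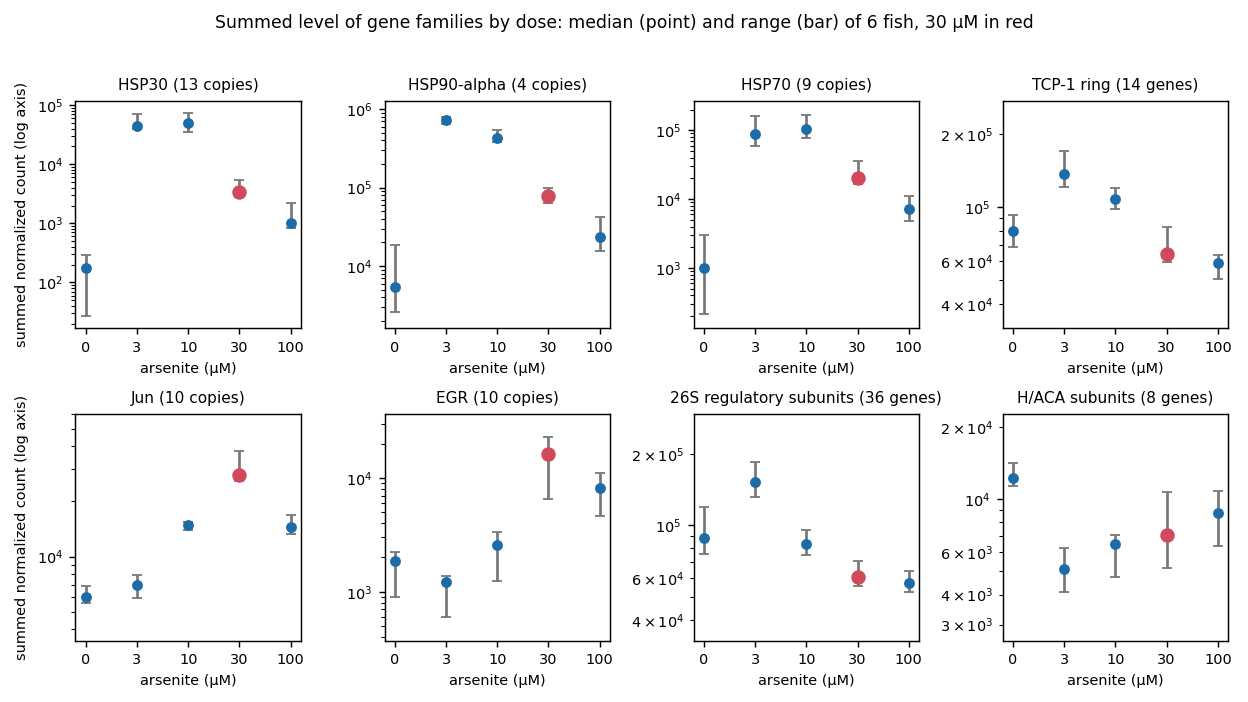
Summed normalised counts (log axis) of 8 gene families in the arsenite libraries at 0, 3, 10, 30 and 100 µM; points are the median of 6 fish, bars run from the lowest to the highest fish, and 30 µM is drawn in red. Summed HSP30 and HSP90-alpha are lower at 30 than at 3 and 10 µM, while Jun and EGR sums are highest at 30 µM.

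Most ubiquitin genes rose while most genes of the proteasome, which degrades ubiquitinated protein, fell. Polyubiquitin-c (ubc) was at 1373 to 2608 (median 1617) in control and 6804 to 9269 (median 7579) at 30 µM, and ubb was at 10150.5 to 15153 (median 12660.3) and 32909 to 43849.8 (median 36423). Neither pair of groups overlapped, and the rises were 2.16 ± 0.12 (limma adjusted p = 5.24e-09) and 1.57 ± 0.095 (limma adjusted p = 8.45e-09). Another polyubiquitin-b copy, LOC106562992, did not pass, at 21019 to 34112 (median 26357) in control and 18874 to 30537 (median 28049.7) at 30 µM. Of 112 proteasome genes tested, 14 were called higher and 69 lower, against a background of 26.9% and 21.1%, with a median of −0.44. The falls lay in the core and the regulatory particle: 18 of 23 genes for the alpha rings of the 20S core, 13 of 23 for the beta rings, which hold the proteolytic sites, and 29 of 36 for the 19S regulatory particle. Of 11 proteasome activator genes 5 rose and 2 fell. The counts were 3 and 2 without fish 5, with scaling to the library total and with TMM scaling. Summed regulatory subunits ranged from 75600.4 to 119052 in control and from 55478 to 70902 at 30 µM, without overlap. The exception with the largest rise was psmd9, an assembly chaperone of the regulatory particle, at 16.6 to 41.3 (median 34.1) in control and 58.3 to 98.3 (median 80.5) at 30 µM. At 3 µM the summed regulatory subunits were above control, at 131694 to 184919, so exposed cells were above control at 3 µM and below it at 30 µM. Of the 36 genes 34 were lower at 30 than at 3 µM, where the background was 27.7% lower.

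Most genes listed for the integrated stress response rose. Of 47 listed genes tested, 27 rose and 4 fell (median 0.50), against a background of 26.9% higher and 21.1% lower. chac1, which degrades glutathione and is an ATF4 target in mammals, was at 1659 to 2709 (median 1955) in control and 17272 to 23211 (median 19914) at 30 µM. The groups were separated in every fish, and it rose by 3.33 ± 0.091 (limma adjusted p = 2.38e-13). The ATF3-like gene LOC106607825 rose by 4.93 ± 0.13 (limma adjusted p = 1.01e-11), and the gene similar to ppp1r15a (LOC106561078), whose mammalian product restores translation by dephosphorylating eIF2-alpha, rose by 6.50 ± 0.30 (limma adjusted p = 9.99e-06). Against 10 µM, 8 of 48 listed genes were higher and 26 lower at 30 µM, where the background was 13.6% higher and 16.9% lower. With scaling to the library total the counts were 12 and 23. The genes named here parted against 10 µM. chac1 was lower at 30 µM, with a difference of −1.91 ± 0.11 (limma adjusted p = 4.46e-13), the ATF3-like gene was higher by 0.79 ± 0.13 (limma adjusted p = 4.85e-05), and the ppp1r15a-like gene differed by 0.0049 ± 0.22 (limma adjusted p = 0.99), which did not pass.

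As a list, amino acid transporters stood near the background of 26.9% higher and 21.1% lower, with 18 of 56 higher and 13 lower. slc3a2, the heavy chain that carries several amino acid exchangers to the membrane, was at 190.3 to 458 (median 335) in control and 2179.7 to 4337 (median 2740.1) at 30 µM. It rose in all 6 fish by 3.17 ± 0.13 (limma adjusted p = 8.10e-11). The glutamine transporter slc1a5 rose from 303–829 (median 428) in control to 2225–8316 (median 2969) at 30 µM, with the highest exposed value in fish 1, and its change was 2.88 ± 0.13 (limma adjusted p = 3.97e-10). The excitatory amino acid transporter 2-like gene LOC106573351 was almost unread in control, at 0 to 5.48 (median 1.97), and reached 10.96 to 122.97 (median 41.7). Among 45 tRNA ligase genes, 9 rose and 11 fell, again near the background, and 6 and 20 with scaling to the library total. All 3 cytoplasmic cysteine tRNA ligases rose: cars by 1.39 ± 0.11 (limma adjusted p = 1.04e-07), sycc by 1.38 ± 0.11 (limma adjusted p = 5.80e-08) and LOC106562698 by 1.11 ± 0.092 (limma adjusted p = 1.29e-07). The most abundant ligase transcript, qars, stayed between 4073 and 6029.9 at 30 µM, within the control range of 4385 to 6082 except in fish 3 and 6, which lay below it, and did not pass (limma adjusted p = 0.458). With scaling to the library total qars was called lower, with a change of −0.20 (limma adjusted p = 0.0227).

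Immediate early genes, mostly transcription factors that are usually switched on within minutes and fall again, were mostly higher at 48 h, the only time sampled. Of 80 listed genes, 75 were tested. Of these, 53 rose and 7 fell, with a median of 1.51, against a background of 26.9% higher and 21.1% lower. All 10 Jun family genes, 8 of 9 Fos family genes and all 3 NR4A nuclear receptors rose, as did all 9 listed dual specificity phosphatases, which switch off the MAP kinases. The JunB-like gene LOC106607038 was at 25.8 to 135 (median 70.1) in control and 1263 to 2624 (median 2106) at 30 µM. No fish overlapped the other group, and the rise was 4.90 ± 0.31 (limma adjusted p = 4.09e-06). The early growth response 3-like gene LOC106585589 went from 0–5.76 (median 2.28) in control to 49.8–159.4 (median 68.7) at 30 µM, all 6 control values being under 10, so that it was tested only because of its exposed values and no p is given. The NR4A1-like gene LOC106572532 rose by 4.15 ± 0.55 (limma adjusted p = 1.75e-05). Of 26 Krueppel-like factors 7 were higher and 6 lower, near the background of 26.9% and 21.1%. KLF15 (LOC106583637), a regulator of hepatic amino acid and glucose metabolism, had the greatest fall among them, from 409.8–951 (median 575) in control to 68.6–122 (median 89.6) at 30 µM, or −2.69 ± 0.20 (limma adjusted p = 5.27e-08).

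Immediate early genes were more often higher than lower at 30 µM against either neighbouring dose, whereas chaperones were so only against 100 µM. Against 10 µM, 29 of 80 were higher and 7 lower, where the background was 13.6% higher and 16.9% lower. With scaling to the library total the counts were 34 and 5, where 6101 of 25791 genes were higher and 2408 lower. Against 100 µM, 31 were higher and 3 lower, where the background was 2.83% and 0.671%. Summed Jun copies ranged from 5571 to 6906 in control, 13924 to 15386 at 10 µM, 25798 to 37711 at 30 µM and 13244 to 16962 at 100 µM. Families differed against 10 µM: 6 of 10 Jun and 6 of 10 EGR copies were higher, but only 2 of 9 Fos and 0 of 3 NR4A genes.

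Most genes of the p53 response and growth arrest also rose. Of 59 tested, 38 rose and 5 fell, with a median of 0.80, where the background over all genes was 26.9% higher and 21.1% lower. Against 10 µM, 8 of 59 genes of this list were higher and 21 lower at 30 µM, where the background was 13.6% and 16.9%. With scaling to the library total the counts were 14 and 18, where 6101 of 25791 genes were higher and 2408 lower. The stress gene ddt4l, which is not on that list and whose mammalian counterpart inhibits the growth kinase mTORC1, was at 157.2 to 395 (median 208) in control and 6735 to 13415 (median 8869) at 30 µM. The groups were far apart in all 6 fish, and the rise was 5.41 ± 0.14 (limma adjusted p = 1.01e-11). The related DDIT4-like gene LOC106577395 rose by 3.40 ± 0.26 (limma adjusted p = 6.85e-06) and the antiproliferative gene btg2 by 2.96 ± 0.10 (limma adjusted p = 8.00e-12). A pair of btg1-like copies differed in the size of the rise. LOC106583796, at 1.66 to 21.1 (median 10.9) in control, rose by 3.86 ± 0.43. The more abundant LOC106576460, at 4135 to 5403 (median 5036) in control, rose by 0.35 ± 0.09, a call that was lost with scaling to the library total. DNA repair genes went down more often than up, with 30 of 78 lower and 10 higher, against a background of 21.1% lower and 26.9% higher. parp1, the poly(ADP-ribose) polymerase, fell by 1.33 (limma adjusted p = 1.83e-04), with 107 to 241 (median 181) in control and 22.5 to 134 (median 67.6) at 30 µM. An ATM-like kinase gene, LOC106581129, was the opposite case and rose by 3.39 ± 0.23 (limma adjusted p = 1.53e-08). Among apoptosis genes 45 of 124 rose and 14 fell, against the same background of 26.9% and 21.1%. With scaling to the library total 34 of 125 rose and 17 fell, against a background of 21.5% and 27.8%. The BCL-2-like protein 14 gene LOC106609252 rose from 783–1237 (median 1005) in control to 3620.2–6438 (median 4037) at 30 µM, and the abundant DIABLO-like gene LOC106581203, whose product is released from mitochondria in apoptosis, rose by 1.05 ± 0.083 (limma adjusted p = 9.92e-08).

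Transcripts of the mitochondrial genome, which codes for subunits of the respiratory chain, fell. The 13 protein-coding mitochondrial mRNAs made up 2.76%, 3.09%, 2.61%, 2.29%, 3.10% and 2.70% of the counted reads in the controls of fish 1 to 6 and 0.551%, 0.937%, 0.566%, 0.444%, 0.798% and 0.638% at 30 µM. Every exposed value was below every control value. The mean fell from 2.76 ± 0.306% to 0.656 ± 0.181% (SD, n = 6), and an exact two-sided sign-flip permutation test over fish gave p = 0.03125, the smallest that 6 pairs allow. With the 10 most abundant other genes of each library left out, the difference was −2.54 percentage points instead of −2.10. All 13 mRNAs were called lower, in a comparison where 21.1% of genes were, and 12 of them without fish 5. They did not fall equally. ND1, a complex I subunit, was at 11416 to 16836 (median 14203) in control and 922 to 2359 (median 1281) at 30 µM, a change of −3.35 ± 0.12 (limma adjusted p = 5.46e-11). COX2 changed by −2.80 ± 0.09 and COX3 by −2.73 ± 0.11, while COX1, the catalytic subunit of the same complex, changed by −1.76 ± 0.081 (limma adjusted p = 1.01e-11, 2.96e-09 and 6.09e-10). The neighbouring genes ATP8 and ATP6 changed least. ATP6 was at 24426 to 35559 (median 31139) in control and 18145 to 38425 (median 24358) at 30 µM, with overlapping groups, and its fall of 0.27 (limma adjusted p = 0.0262) was lost without fish 5 and when any of fish 1, 3 or 4 was left out.

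The share was 1.72% to 2.58% at 3 µM, 1.52% to 2.34% at 10 µM and 0.448% to 0.970% at 100 µM. Every library at 3 or 10 µM was therefore above every library at 30 µM, and the 30 and 100 µM libraries overlapped. All 13 mRNAs were lower at 30 than at 10 µM and 12 of them also with scaling to the library total. Over all genes 16.9% were lower, and 2408 of 25791 with that scaling. Between 30 and 100 µM their changes ran from −0.31 (ND6) to 0.36 (CYTB). ND1 was −2.10 log2 units from its 10 µM level (SE 0.136; limma adjusted p = 1.00e-11) and −0.30 from its 100 µM level (limma adjusted p = 0.287).

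**Figure D3:**
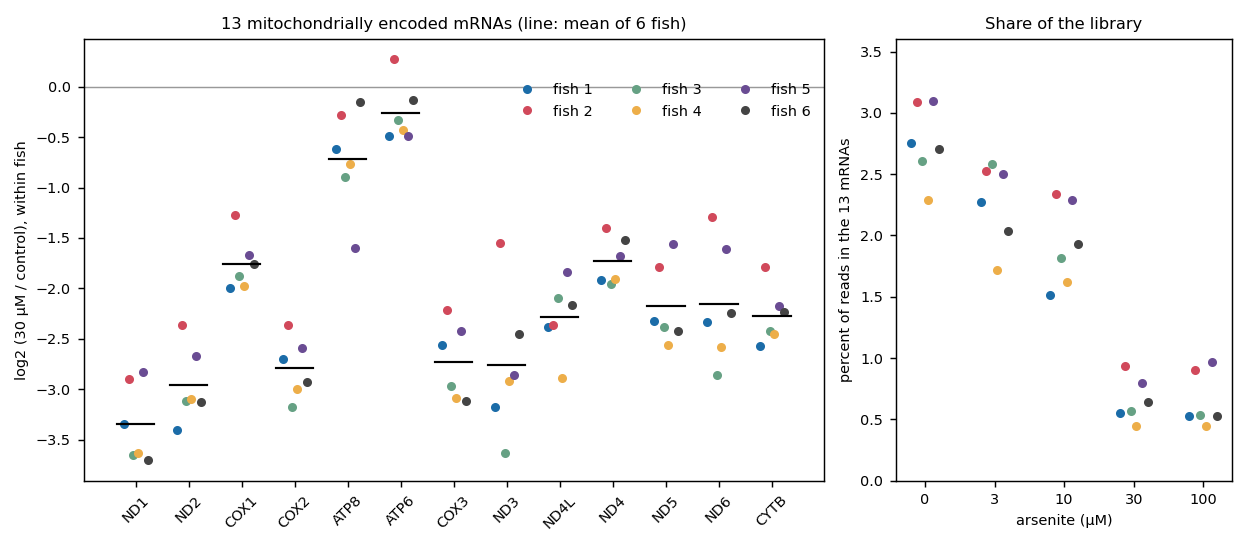
Left: log2 change at 30 µM against the control of the same fish for each of the 13 mitochondrial mRNAs, 1 point per fish with the mean as a line; ND1 falls most and ATP6 least. Right: share of counted reads from the 13 mRNAs in each library by arsenite dose, with 2.29% to 3.10% in control and 0.444% to 0.937% at 30 µM.

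Most nuclear genes for the machinery that reads out the mitochondrial genome fell too. Of 185 genes for mitochondrial ribosomes, import and expression, 118 fell and 10 rose (median −0.51), against a background of 21.1% and 26.9%. The falls included 31 of 41 genes of the small mitochondrial ribosomal subunit, 38 of 59 of the large one, 25 of 42 import translocase genes and 8 of 10 genes for mitochondrial transcription and RNA handling. lrpprc, which stabilises mitochondrial mRNAs, was at 2364 to 3343 (median 2789) in control and 1556 to 2182 (median 1966) at 30 µM and fell by 0.56 (limma adjusted p = 4.44e-05). Of 170 nuclear respiratory chain genes 42 were lower and 20 higher, near the background of 21.1% for falls and under that of 26.9% for rises. With scaling to the library total 74 were lower and 10 higher, against a background of 27.8% and 21.5%, so falls were above the background with that scaling. For subunits of complex IV the counts were 9 lower and 9 higher of 38. They were 17 and 5 with scaling to the library total, and 9 and 6 without fish 5. Among factors that assemble complex IV, 5 of 10 fell. The assembly factor 1 homolog LOC106569212 went from 278–403 (median 339) in control to 113–139.6 (median 124) at 30 µM, the assembly factor 5 gene LOC106586742 from 221–354 (median 263) in control to 83.3–164.2 (median 105.5) at 30 µM, and the assembly factor 3 homolog LOC106589644 from 642–896 (median 701) in control to 199–424 (median 297) at 30 µM. None of these sets of values overlapped. The abundant ATP synthase beta gene LOC100196679 overlapped between groups and changed by −0.27 ± 0.083 (limma adjusted p = 0.0147).

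Ribosome production in the nucleolus showed lower transcript levels while cytoplasmic ribosomal protein genes changed little. Of 124 nucleolar genes, 74 fell and 10 rose (median −0.47), against a background of 21.1% lower and 26.9% higher. All 8 genes of the H/ACA particle, which guides pseudouridine into ribosomal RNA, fell, and so did 14 of 16 genes named as numbered nucleolar proteins. dkc1, the pseudouridine synthase of that particle, was at 1423 to 2519 (median 1913) in control and 418 to 1241 (median 783) at 30 µM. The groups did not overlap, and the change was −1.33 ± 0.20 (limma adjusted p = 3.51e-04). The methyltransferase gene NEP1 (LOC106575899) changed by −1.42 ± 0.18 (limma adjusted p = 1.27e-05) and the ribosome biogenesis regulator LOC106579528 by −1.34 ± 0.17 (limma adjusted p = 1.09e-05). An exception was the nucleolar transcription factor that recruits RNA polymerase I, for which 5 of 6 copies rose. H/ACA genes summed to 11363 to 14228 in control, 4118 to 6230.4 at 3 µM, 5172 to 10694 at 30 µM and 6352 to 10822 at 100 µM. Of their 8 genes 6 were higher at 30 than at 3 µM, and 3 were higher than at 10 µM. Over all genes 28.3% were higher than at 3 µM and 13.6% than at 10 µM.

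Of 182 cytoplasmic ribosomal protein genes, 13 were called higher and 6 lower, far under the background of 26.9% and 21.1%, and the split turned to 2 higher and 24 lower with scaling to the library total and to 40 higher without fish 3. Translation factors were more often lower, with 40 of 128 lower and 24 higher, and 65 and 17 with scaling to the library total. The background was 21.1% lower and 26.9% higher, and 27.8% and 21.5% with that scaling. eif4e2, a cap-binding repressor of translation, had the greatest fall of these, from 196–258 (median 228) in control to 15.3–115 (median 71.3) at 30 µM, or −1.98 ± 0.29 (limma adjusted p = 1.06e-04). The translation factor eIF5A-1 gene LOC106577556 rose from 635–967 (median 826) in control to 2696–3714 (median 2849.8) at 30 µM, by 1.86 ± 0.10 (limma adjusted p = 1.52e-09). The abundant elongation factor 2-like gene LOC106569524 overlapped between groups and changed by −0.26 ± 0.065 (limma adjusted p = 0.00395), a call lost without both the mean-variance trend and the robust variances.

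Genes that take up, methylate or export arsenic moved copy by copy, without a common direction. as3mt was at 166.1 to 238 (median 224) in control and 194 to 272 (median 208) at 30 µM, fully overlapping, and did not pass (log2 change −0.0047 ± 0.145; limma adjusted p = 0.981). Of the other 3 arsenite methyltransferase copies, the scarce LOC106568062 rose from 19.5–54.1 (median 46.6) in control to 103.01–191 (median 135) at 30 µM, by 1.89 ± 0.25 (limma adjusted p = 1.47e-05). The more abundant LOC106581028 and LOC106588782 fell by 0.42 and 0.32 (limma adjusted p = 8.27e-04 and 0.00474). Summed over the copies, methyltransferase transcripts ranged from 3669 to 4171 in control and from 3009 to 3507 at 30 µM.

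The aquaglyceroporins, channels through which arsenite enters and leaves cells, were split in the same way. aqp9 rose by 1.10 ± 0.15 (limma adjusted p = 1.62e-05), and the aquaporin-3-like gene LOC106588140 rose from 7.42–39.3 (median 29.3) in control to 65.8–140.0 (median 72.9) at 30 µM. The far more abundant LOC106595412, an aquaporin-9-like gene, went down from 2812–3887 (median 3058) in control to 1576–2395 (median 2132) at 30 µM, or by 0.62 (limma adjusted p = 4.86e-05). Of 3 aquaporin-10-like genes, LOC106573814 fell by 0.42 (limma adjusted p = 3.60e-04), LOC106575444 did not pass (limma adjusted p = 0.745), and LOC106570179 fell by 1.82, or by 1.10 without fish 5, where it was at 0. gsto1, a glutathione transferase that reduces pentavalent arsenic, was at 3183 to 4642 (median 3695) in control and 2926 to 4888 (median 4452) at 30 µM, and abcc2, the canalicular exporter of glutathione conjugates, at 10562 to 12754 (median 11359) and 10843 to 12791 (median 12068); neither passed (limma adjusted p = 0.42 and 0.631). Purine nucleoside phosphorylase, which in mammals also reduces arsenate, was higher throughout: all 5 copies rose. LOC106578021 was at 2278 to 3910.1 (median 3013) in control and 17837 to 23105 (median 19643) at 30 µM, a rise of 2.71 ± 0.10 (limma adjusted p = 3.30e-11). LOC106565393 had the smallest change, 0.53 ± 0.20, with overlapping groups, and its call was lost under several other settings.

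As a list, antioxidant genes did not stand out. Of 96 redox genes tested, 23 rose and 21 fell, close to the background in both directions. nf2l2, the gene of NRF2, rose from 1259–1729.6 (median 1517) in control to 3472–5179 (median 4313) at 30 µM, by 1.50 ± 0.097 (limma adjusted p = 8.28e-09). The gamma-glutamyltransferase gene ggt7 rose by 2.48 ± 0.37 (limma adjusted p = 6.92e-05). Thioredoxin and selenoprotein genes were more often lower, with 22 of 73 lower and 11 higher, against a background of 21.1% and 26.9%. sephs1, listed for selenium metabolism, was at 804 to 1118 (median 916) in control and 288 to 453 (median 387) at 30 µM and changed by −1.32 ± 0.12 (limma adjusted p = 2.45e-07). The selenium carrier sepp1 overlapped between groups, was lower in all 6 fish and changed by −0.44 ± 0.066 (limma adjusted p = 6.13e-05). The redox list was higher at 10 µM: of 99 genes, 52 were lower and 6 higher at 30 than at 10 µM. The background of that comparison was 16.9% lower and 13.6% higher. With scaling to the library total the counts were 30 and 11, where 2408 of 25791 genes were lower and 6101 higher.

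A pair of heme synthesis genes moved in opposite directions. The 5-aminolevulinate synthase gene LOC106583798, the first enzyme of the pathway, was at 2717 to 4445 (median 3018) in control and 7611 to 14291 (median 10369.8) at 30 µM, a rise of 1.71 ± 0.082 (limma adjusted p = 2.71e-10). Uroporphyrinogen decarboxylase (LOC106569255) went from 504–899 (median 615) in control to 113–386 (median 198) at 30 µM, a change of −1.71 ± 0.15 (limma adjusted p = 3.23e-07). Neither gene's groups overlapped. Of 27 ferritin genes, which code for the iron store, 10 rose, all by less than 1 log2 unit. Against 10 µM, 23 of the 27 were lower at 30 µM, where the background was 16.9% lower, and 19 with scaling to the library total. Genes listed for metals other than iron, among them metal transporters, fell in 21 of 52 cases and rose in 9, against a background of 21.1% lower and 26.9% higher.

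Sterol synthesis genes rose and several lipid genes fell. Of 37 cholesterol synthesis genes, 23 rose and 3 fell (median 0.69), and all 3 genes for the sterol regulatory element-binding proteins that control them rose. mvk, mevalonate kinase, was at 299 to 853 (median 476) in control and 1555 to 4409 (median 2181) at 30 µM, without overlap, and rose by 2.34 ± 0.28 (limma adjusted p = 3.33e-04). The cytoplasmic HMG-CoA synthase gene LOC106571543 rose by 1.94 ± 0.25 (limma adjusted p = 0.00106). INSIG1-like LOC106578605, whose product holds those factors back in the membrane, rose by 2.04 ± 0.12 (limma adjusted p = 7.19e-09). Fatty acid synthesis genes were near the background of 26.9% higher and 21.1% lower, with 15 higher and 14 lower of 60. The abundant acyl-CoA desaturase gene LOC106577210 was at 204991 to 275851 (median 252995) in control and 51209.8 to 102400 (median 73559.7) at 30 µM. In fatty acid oxidation 32 of 92 genes fell, above the background of 21.1%, and 22 rose, near that of 26.9%. The long-chain acyl-CoA ligase 1-like gene LOC106612015 went from 257–644 (median 399.6) in control to 22.3–81.7 (median 39.7) at 30 µM, a change of −3.14 ± 0.21 (limma adjusted p = 9.49e-09). The liver carnitine palmitoyltransferase 1 gene LOC106573415, the gate of mitochondrial oxidation, overlapped between groups, was lower in all 6 fish and changed by −0.54 ± 0.086 (limma adjusted p = 1.05e-04).

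In glucose metabolism 35 of 114 genes rose and 25 fell, near the background of 26.9% and 21.1%, and 25 and 27 with scaling to the library total. The bifunctional enzyme gene LOC106576192, of the PFKFB family, which sets the level of a glycolytic activator, was at 99.7 to 272 (median 185) in control and 542 to 3099.7 (median 1581) at 30 µM, and rose by 3.02 ± 0.45 (limma adjusted p = 0.0022). A glucokinase-like gene, LOC106585167, rose from 34.1–102.9 (median 54.8) in control to 206–312 (median 264) at 30 µM. Neither pair of groups overlapped.

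Hepatocyte products went both ways. Vitellogenin (LOC100136426), the egg yolk precursor that estrogen induces in fish liver, was at 276465 to 755319 (median 433181) in control and 14189 to 130813 (median 31833) at 30 µM. It was lower in all 6 fish, with the highest values in fish 3 and 6 in both groups. The estrogen receptor gene esr1 was at 17202 to 33162 (median 24188) and then 7848 to 17435 (median 12512), barely overlapping, and changed by −0.98 ± 0.085 (limma adjusted p = 2.20e-07). The apolipoprotein Eb-like gene LOC106577506 fell by 1.65 (limma adjusted p = 4.22e-05), whereas apolipoprotein A-I (LOC100136573), the main protein of high-density lipoprotein, rose by 0.27 ± 0.052 (limma adjusted p = 4.34e-04). Of 47 cytochrome P450 genes 14 rose and 7 fell, against a background of 26.9% and 21.1%, and 11 and 11 with scaling to the library total. cyp1a, the P450 induced through the aryl hydrocarbon receptor, fell by 1.18 (limma adjusted p = 1.56e-07), and the abundant cytochrome P450 3a27 did not pass in the 12-library fit, at 24215 to 35149 (median 29525) in control and 18688 to 34005 (median 27168) at 30 µM.

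Acute-phase and complement genes rose more often than they fell. In the acute-phase list 24 of 46 rose and 3 fell, and in complement 39 of 60 rose and 8 fell. The background was 26.9% higher and 21.1% lower. Haptoglobin-like LOC106587252, which binds free hemoglobin, was at 18283 to 24885 (median 23268) in control and 40577 to 53414 (median 48699) at 30 µM, and rose by 1.11 ± 0.078 (limma adjusted p = 2.03e-08). Clusterin-like LOC106607816, an extracellular chaperone, rose by 1.77 ± 0.093 (limma adjusted p = 8.24e-10). Hemopexin-like LOC106586883, which binds heme, overlapped between groups and rose by 0.32 ± 0.054 (limma adjusted p = 1.37e-04), and the abundant complement factor H-like gene LOC106560550 did not pass (limma adjusted p = 0.123). The coagulation list was called higher in 23 and lower in 14 of 57 genes, a balance that turned to 15 and 23 with scaling to the library total. With that scaling the background was 21.5% higher and 27.8% lower. The greatest rise of the coagulation list was the tissue factor-like gene LOC106568893, the trigger of clotting, from 0–23.98 (median 9.90) in control to 339–931 (median 559.8) at 30 µM.

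Genes of the NF-kappa-B pathway, which drives inflammatory transcription, rose more often than they fell. Of 51 of them 25 rose and 3 fell, against a background of 26.9% higher and 21.1% lower. Of 20 cytokine and chemokine genes 7 were higher and 4 lower, near that background. The summed level of the cytokine and chemokine list was lower at 30 µM in all 6 fish, at 7587 to 10200 in control and 6230 to 7389 exposed. tnf-alpha-2, a tumor necrosis factor, was at 2.44 to 20.1 (median 8.43) in control and 97.3 to 242 (median 136) at 30 µM, and rose by 3.94 ± 0.40. Its control median was under 10, so its exposed values carried it into that test and no p is given. In the dose comparison tnf-alpha-2 was 1.31 ± 0.41 higher at 30 than at 10 µM (limma adjusted p = 0.0135). The adaptor traf4 rose by 1.31 ± 0.095 and the nuclear inhibitor-zeta-like gene LOC106574873 by 1.82 ± 0.15 (limma adjusted p = 3.04e-08 and 1.53e-07). The CXCL14-like chemokine gene LOC106604935 fell by 1.01 (limma adjusted p = 2.77e-05).

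Matrix and growth factor genes were more often higher, at 53 of 140 against 12 lower, where the background was 26.9% higher and 21.1% lower. The cyr61-like gene LOC106601163 and the connective tissue growth factor-like gene LOC106572617, both secreted matricellular proteins, went from 2.12–28.3 (median 11.2) in control to 151.999–323 (median 264) at 30 µM and from 7.86–21.9 (median 13.2) in control to 154.1–357 (median 256) at 30 µM. Both were higher in every fish, by 4.52 ± 0.43 and 4.21 ± 0.28. Their lowest control values were under 10, so exposed values carried both into the test and no p is given. Abundant fibronectin (LOC100380696) did not pass (limma adjusted p = 0.0844). The wnt-9a-like gene LOC106599874 fell from 515–830.1 (median 622) in control to 64.9–204 (median 138) at 30 µM, or by 2.38 (limma adjusted p = 1.08e-08), and was 2.01 ± 0.57 higher at 30 than at 10 µM (limma adjusted p = 0.00902). Calphotin-like LOC106580076 had one of the greatest falls of any annotated gene, from 164.1–515 (median 458) in control to 15.3–69.6 (median 18.4) at 30 µM.

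Markers of cells other than hepatocytes were scarce, and some of them fell while others rose. The background over all genes was 26.9% higher and 21.1% lower. Of 10 erythroid genes 7 were tested and 5 fell (median −2.05). The 6 control values alone could carry so scarce a gene through the filter, so falls among those tested were partly set by it. The sum of all 10, tested or not, was lower at 30 µM in all 6 fish, at 112 to 528 in control and 20.9 to 204 exposed. The beta-globin gene LOC100136576 was at 13.4 to 94.3 (median 20.998) in control and 0.927 to 15.3 (median 8.51) at 30 µM, with a slight overlap. Stellate cell markers summed to 1014 to 1297 in control and 815 to 973 exposed, lower in all 6 fish, with 3 of 7 lower and 2 higher; among matrix genes the type I collagen gene LOC106577842 fell by 0.76 (limma adjusted p = 1.57e-05). Of 4 biliary markers tested 1 rose and 1 fell, the latter being the sox-9-a-like gene LOC106606426 with a fall of 1.73 (limma adjusted p = 3.08e-05). The biliary rise was not called without pairing by fish, with scaling to the library total, or with TMM, edgeR or DESeq2. Of 2 endothelial markers tested 1 rose and the other did not pass. Leukocyte marker sums overlapped, at 467 to 635 and 463 to 662, with 2 of 8 lower and 1 higher. A pair of scarce immune genes, chosen after their values were seen, was lower: lysozyme C II (LOC100136365) was at 40.2 to 113 (median 87.8) in control and 0 to 14.2 (median 4.50) at 30 µM, and the complement gene c1qb, which macrophages make in mammals, at 10.6 to 37.3 (median 16.0) and 0 to 4.98 (median 0.927). Other scarce immune genes rose, among them tnf-alpha-2. The part of these cells in the changes of immune, matrix and heme genes was not tested.

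Set against the other arsenite doses, 30 µM was close to 100 µM and far from 3 µM. Of 25801 genes tested in the 30 arsenite libraries, 7307 were higher (28.3%) and 7152 lower (27.7%) at 30 than at 3 µM, 7871 differed between 30 and 10 µM (30.5%) and 904 between 30 and 100 µM (3.50%). These comparisons share the 30 µM libraries. The direction of the 30 against 10 µM difference depended on scaling, with 3508 genes higher and 4363 lower as deposited and 6101 and 2408 with scaling to the library total. Of the 904 genes that separated 30 from 100 µM, 731 were higher at 30 µM. Besides chaperones and immediate early genes, 14 of 48 integrated stress genes and 13 of 59 genes of the p53 list were higher at 30 than at 100 µM. Over all genes 2.83% were. LOC106601019, the gene with the greatest rise, was 3.47 ± 0.32 higher at 30 than at 100 µM (limma adjusted p = 1.88e-07). Without the 30 µM library of fish 5 the 30 against 100 µM count was 761, and without the 100 µM library of fish 1, which held 1694 genes at 0, it was 806. Without pairing by fish it was 432.

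**Figure D4:**
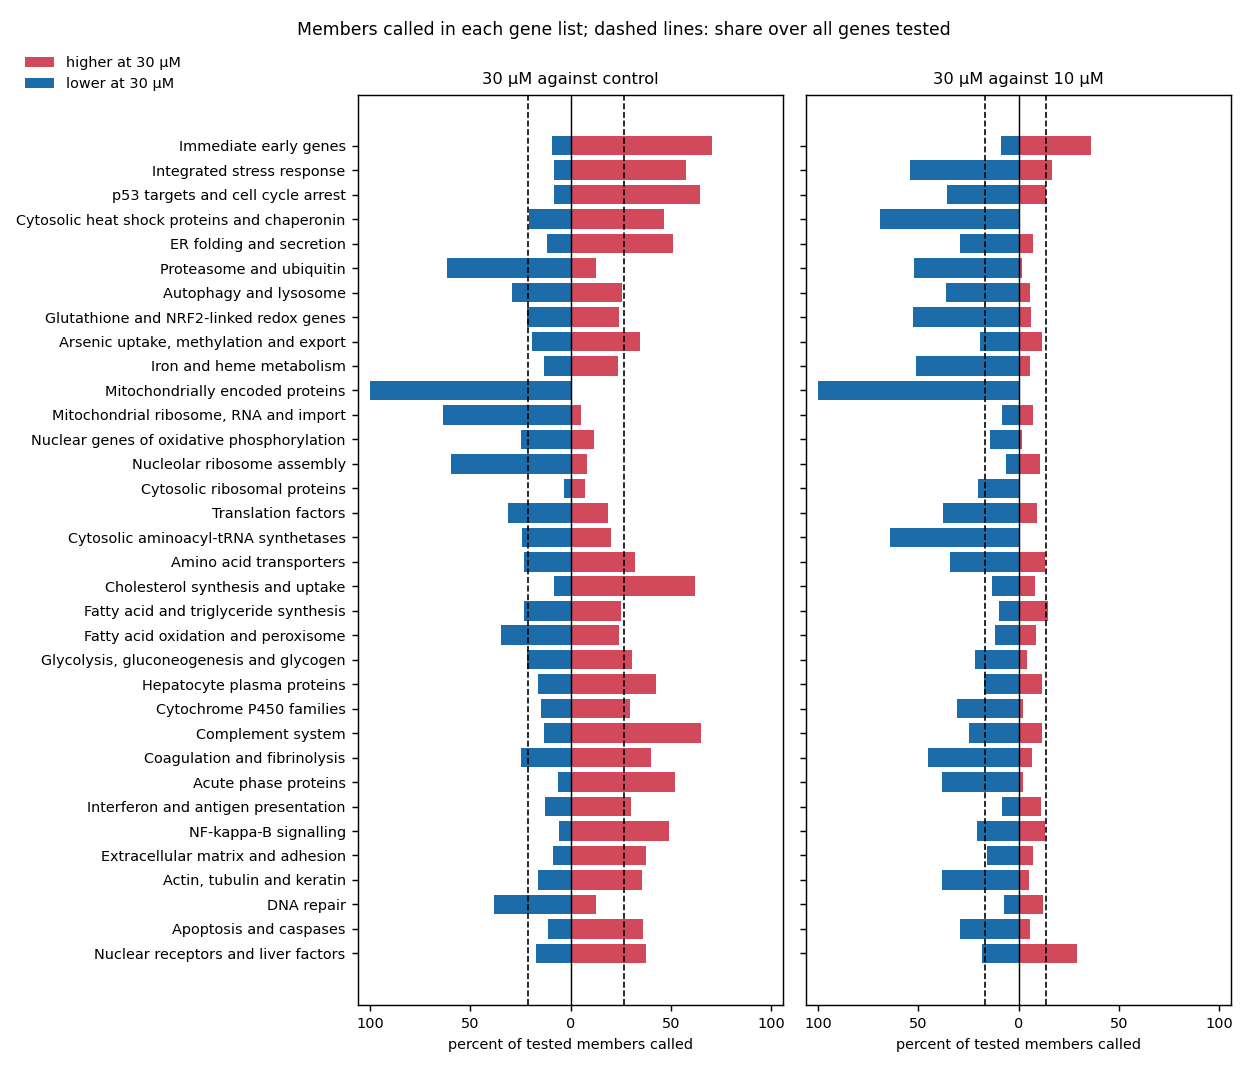
Percent of the tested members of each gene list called higher (right) or lower (left) at 30 µM, against control and against 10 µM; dashed lines mark the percent of all tested genes, 26.9% higher and 21.1% lower against control and 13.6% and 16.9% against 10 µM. Immediate early genes lie far to the higher side in both comparisons, and chaperones change from mostly higher against control to mostly lower against 10 µM.

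The 30 µM library of fish 5 had 955 genes that were at 0 in it and in none of the other 11 libraries, against 15 to 94 such genes in each of those. Nearly all were low elsewhere, and 3 of them averaged 100 or more in the other 30 µM libraries. The piezo-type channel gene LOC106562059 was at 76.5 to 164.4 in the controls, and it changed by −0.98 ± 1.16 with fish 5 and by 0.21 without it, passing in neither fit. Without fish 5 the fit of the remaining pairs called 6608 genes higher and 5061 lower, near the counts with all 6 fish.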

How the data were processed

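RNA of cultured Salmo salar hepatocytes was sequenced; 12 of the 72 libraries were compared here (6 fish, control and 30 µM arsenite), with the 3, 10 and 100 µM arsenite libraries added for the dose comparisons. Groups and fish numbers follow the titles. Per the submitters' processing notes HISAT2, featureCounts from Subread and DESeq2 1.40.2 were used; for genome build, annotation and strand setting the sources used here state nothing. The deposited unit is a normalised signal: counts divided by a size factor per library, for 25830 genes, each of which reached 10 in at least 10 libraries. Dividing by the step of each library recovered whole reads for 100% of the values (tolerance 0.01), 33209127 to 56053503 per 30 µM library and 32673323 to 47229788 per control library. Product names and symbols of the genes came from the deposited table, with the RefSeq gene table used where a symbol was missing. Of the gene identifiers, 23011 were found in the RefSeq gene table.

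The test was limma 3.58.1 (R 4.3.3) on log2(value + 1) with fish as a block, on genes that reached 10 in at least 6 of the 12 libraries, with a mean-variance trend, robust variances and a Benjamini-Hochberg adjusted p under 0.05 over all genes tested. Values in 1 group alone could carry a gene through this filter. Dose comparisons used all 30 arsenite libraries, with 10 or more in 6 of them. Log2 changes are on the log2(value + 1) scale, which understates changes of low genes, and ± after a log2 change is its SE. The count models edgeR 4.0.16 and DESeq2 1.42.0 ran on recovered reads as alternatives. The fish number is the donor, so libraries of 1 fish pair by design; deviations from the group mean correlated in every fish (0.134 to 0.400, mean 0.296, against a mean of −0.060 between fish). Within the control group and within the 30 µM group, no pair of libraries was close enough to be a duplicate. Pairs across groups and at other doses were not compared. The script was tested on simulated data. The 51 gene lists and the families were built from product names and symbols, and they and the comparison itself were chosen with earlier results of these data known. Genes named are the greatest changes with the same sign in 6 of 6 fish (15 each way, with a group mean of 100 or more), the 3 greatest called and the most abundant of each list, the arsenic handling and mitochondrial genes, and genes at 0 in fish 5; repeats were left out.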

Additional observations from a re-analysis of the deposited data

Results flagged for a closer look

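In a group of 6 libraries, a value was picked out when its gap to the nearest other value was a large part of the group's range by the critical value of Dixon's test. Chance picks out about 1 in 20 groups, and 13 values were picked out in 264 groups. In fish 1, slc1a5 was at 8316 and cars at 1119.6 at 30 µM, each above the other 5 fish. The control library of fish 1 was the highest for LOC106562698, at 1149, and for ddt4l, at 395. At 30 µM, fish 5 had the highest value of LOC106577556, 3714. as3mt was lowest in the control of fish 5, at 166.1, and highest at 30 µM in fish 6, at 272. The control of fish 3 had the lowest LOC106588140, at 7.42, and the lowest LOC106581203, at 20358. LOC106570179, LOC106562059 and LOC106585144 were each at 0 at 30 µM in fish 5 and in no other library of that group. That library also had 1396 genes at 0, against at most 270 in the others at 30 µM.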

How the results depend on the processing

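Without the replicate block, that is without pairing by fish, 10184 genes were called against control instead of 11925, and 432 instead of 904 between 30 and 100 µM. The other totals stayed within 1.5 times. Unpaired, the lists that moved further included chaperones (15 lower), amino acid transporters (8 lower), aminoacyl-tRNA synthetases (6 lower), redox genes (14 higher, 11 lower), nuclear oxidative phosphorylation (13 higher), fatty acid synthesis (9 lower), glucose metabolism (22 higher) and apoptosis (9 lower). Over the fits without replicate 1 to 6 the total against control ran from 10357 to 11669, and over all 18 alternatives from 10184 to 13132. The mitochondrial share fell in every fish; unpaired, its exact permutation p was 0.00216, and with 1 fish left out the difference ran from −2.06 to −2.15 percentage points with p = 0.0625, the smallest that 5 pairs allow. Of 117 called genes named or considered for naming, 106 kept direction and call in each of the 18 alternatives that tested them. In at least 1 alternative 11 lost the call, and 0 reversed. A gene too low to be tested in an alternative was not counted as lost there. Losses were ATP6, ATP8, LOC106565393, LOC106573415, LOC106586883 and LOC106576650 without the replicate block, LOC106576460 with scaling to the library total, and hspa8, LOC100196679, LOC106569524 and LOC106570179 without both the trend and the robust variances; the cause was not tested.

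Some genes that did not pass gained a call under another setting. LOC106594168 was called lower with scaling to the library total, with TMM, edgeR and DESeq2, and in both 30-library fits. Scaling to the library total also called qars lower. The 30-library fits called LOC106560550 higher and LOC106579980 lower, and without fish 2 LOC100380696 was called higher. The genes whose sign turned did not pass in the fit with all libraries. Under scaling to the library total LOC106575444 was at −0.093, gsto1 at −0.018, abcc2 at −0.077 and LOC106560550 at −0.0041. Under TMM LOC106575444 was at −0.019 and abcc2 at −0.0035, under edgeR LOC106575444 was at −0.016, and under DESeq2 they were at −0.021 and −0.0051. Over the fits with 1 fish left out as3mt ran from −0.071 to 0.045, LOC106562992 from −0.076 to 0.0036, LOC106575444 from −0.0058 to 0.072 and LOC106562059 from −1.30 to 0.21, and LOC106562059 was at 0.26 in the 30-library fit without the 30 µM library of fish 5, an alternative chosen after seeing the data. Low genes limit the rest: 955 genes are at 0 only in fish 5 at 30 µM, and with a minimum of 50 no erythroid marker could be tested.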

Other observations

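Copies with the same product name did not always move together. Among products with exactly 2 tested copies, both copies rose for 406, both fell for 346, for 185 the copies moved in opposite directions, and for 918 neither copy passed. For 702 products 1 copy rose and the other did not pass, and for 592 1 copy fell and the other did not pass, which does not show that those copies differed. The pairs named here were chosen after their values were seen. The 4F2 heavy chain, which pairs with amino acid exchangers, has slc3a2 at 329 ± 95.1 in control and 2928 ± 736 at 30 µM and 4f2 at 8408 ± 1669 in control and 4883 ± 711 at 30 µM (SD, n = 6). The first rose by 3.17 ± 0.13 and the second changed by −0.78 ± 0.092 (limma adjusted p = 8.10e-11 and 5.59e-06), each the same way in 6 of 6 fish. For plasminogen activator inhibitor 1, which restrains the dissolving of clots, LOC106577897 was at 1381 ± 299 in control and 9880.0 ± 1346 at 30 µM, and LOC106608947 at 56.8 ± 27.2 in control and 9.72 ± 5.74 at 30 µM. Their changes were 2.85 ± 0.14 (limma adjusted p = 1.08e-08) and −2.72 ± 0.54. The exposed mean of LOC106608947 was under 10, so its control values carried it into the test and no p is given for it. For the egg envelope gene zona pellucida sperm-binding protein 4-like, LOC106573520 was at 66989 ± 24434 in control and 32305 ± 10776 at 30 µM and changed by −1.05 ± 0.068 (limma adjusted p = 8.70e-09). LOC106607121 was at 7.98 ± 6.59 in control and 53.6 ± 25.6 at 30 µM and changed by 2.74 ± 0.44. The control mean of LOC106607121 was under 10, so its exposed values carried it into the test and no p is given for it.

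Cathepsin E-like LOC106576650 and the pseudokinase gene fam20a, which assists kinases of secreted proteins, varied widely between fish within each group. LOC106576650 was at 272 to 5518 (median 2139) in control and 58.4 to 1421 (median 295) at 30 µM, and fam20a at 259 to 2374 (median 761) and 61.2 to 526 (median 99.6). Both had their highest values in fish 3 and fish 6 in each group, as vitellogenin did, and both were lower at 30 µM in 6 of 6 fish, by −2.53 ± 0.24 and −2.67 ± 0.17 (limma adjusted p = 3.41e-05 and 7.85e-09). Without pairing by fish the call of LOC106576650 was lost (limma adjusted p = 0.0706).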
